A study of Homo sapiens with 16 samples.

Results

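The genes that write DNA methylation and those that remove it were followed through stepwise acquisition of gemcitabine resistance. The 8 genes were taken from the deposited table by symbol and not by a cutoff on their values, though earlier results of these data were known. They are the DNA methyltransferases DNMT1, DNMT3A and DNMT3B, the methyltransferase partner UHRF1, the methylcytosine oxidases TET1, TET2 and TET3, and the DNA glycosylase TDG. All 8 were among the 39007 gene symbols of the table, and all 8 were among the 13249 genes with a mean above 1 CPM (counts scaled to the same total in each library) that entered the tests. RNA was sequenced from GRC1, a line derived from the human bladder cancer cell line T24 by repeated rounds of gemcitabine, a nucleoside analogue. The parental phase, P0, was T24 before the drug. The early phase was P3, the intermediate phase was P7 and the late phase was P15, the number giving the rounds of drug survived, with 4 libraries per phase and 16 in all. GRC1 is 1 of several resistant lines of the study and the only one sequenced here, so P3, P7 and P15 are successive stages of 1 selected population. The sources used here do not say whether the libraries of a phase came from separate cultures, and p-values then measure the spread between these libraries only.

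In mammalian cells DNA methylation sits mainly on the cytosine of CG dinucleotides. When DNA is copied, UHRF1 recognises the half-methylated CG sites behind the replication fork and recruits DNMT1, which methylates the new strand, and DNMT3A and DNMT3B place methylation on sites that had none. TET1, TET2 and TET3 oxidise methylcytosine stepwise, and TDG cuts out the most oxidised forms so that base excision repair restores cytosine. DNA methylation itself and protein levels were not measured in these libraries.

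DNMT3A and TET1 were highest at P15, DNMT3B was highest at P0, and UHRF1, TET2, TET3 and TDG were lowest at P15. DNMT1 had its highest mean at P0, but its P0 libraries overlapped those of P3 and P15. The RefSeq table held 19 starts for the 8 genes, and for 4 of the genes whose levels moved apart the 250 bases before a start that overlaps none of the gene's own annotated exons are given here, since CG dinucleotides are the substrate of the encoded enzymes and their number before these starts differed widely. Capitals mark each CG, the build is GRCh38.p14, and each window is written from 5′ to 3′ on the gene's own strand. They are chr19:4909894-4910143 on the plus strand for UHRF1, chr2:25341926-25342175 on the minus strand for DNMT3A, chr20:32779602-32779851 on the plus strand for DNMT3B and chr10:68560087-68560336 on the plus strand for TET1.
UHRF1: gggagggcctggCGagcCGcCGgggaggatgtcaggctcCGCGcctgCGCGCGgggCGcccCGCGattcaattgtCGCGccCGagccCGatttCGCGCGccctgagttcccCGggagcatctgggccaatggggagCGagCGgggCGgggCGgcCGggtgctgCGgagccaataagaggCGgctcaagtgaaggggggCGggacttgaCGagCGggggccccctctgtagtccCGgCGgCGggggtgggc
DNMT3A: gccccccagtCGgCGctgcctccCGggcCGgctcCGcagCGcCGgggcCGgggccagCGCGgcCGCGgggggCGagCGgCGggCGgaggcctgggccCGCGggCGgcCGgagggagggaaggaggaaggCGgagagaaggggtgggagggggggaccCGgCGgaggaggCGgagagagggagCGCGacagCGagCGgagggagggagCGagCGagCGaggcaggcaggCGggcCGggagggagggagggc
DNMT3B: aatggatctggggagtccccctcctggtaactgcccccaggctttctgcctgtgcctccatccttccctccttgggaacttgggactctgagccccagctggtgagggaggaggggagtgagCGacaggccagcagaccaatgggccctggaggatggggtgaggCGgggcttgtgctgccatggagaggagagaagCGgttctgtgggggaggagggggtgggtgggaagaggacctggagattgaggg
TET1: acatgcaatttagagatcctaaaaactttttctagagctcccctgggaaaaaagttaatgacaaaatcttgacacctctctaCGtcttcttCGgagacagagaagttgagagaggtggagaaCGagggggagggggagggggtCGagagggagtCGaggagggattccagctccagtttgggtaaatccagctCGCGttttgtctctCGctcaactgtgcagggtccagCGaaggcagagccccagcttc
The UHRF1 window held 32 CG dinucleotides and the DNMT3A window 33, against 9 in the TET1 window and 3 in the DNMT3B window. Over the 35116 RefSeq windows of this length the median was 11, with quartiles of 3 and 23. DNMT3B had 1 start in the table, and its window lies well inside the annotated gene, so its count does not describe the 5′ end of DNMT3B. The windows shown for UHRF1 and DNMT3A also lie inside the annotated genes, and that of TET1 directly before its gene. Over all starts listed, the windows of DNMT3A held 12 to 33 CG dinucleotides, those of UHRF1 28 to 41 and those of TET1 4 to 11. The DNMT3A window shown was the highest of its range. The window directly before the annotated DNMT3A gene, chr2:25342591-25342840, also overlaps none of its exons and held 12. The counts of the windows shown for DNMT3A and TET1 thus come from unlike places in the genes. The letters TTTNNCGC, a form of the binding site of the E2F factors of the cell cycle, were searched on both strands and were present in 5.92% of all windows. Among the 19 windows of the 8 genes they were found only at UHRF1, in 2 of its 3 windows, one of which is shown here. The letters GGGCGG, bound by the SP family, were present in 42.64% of all windows, and CCAAT, bound by NF-Y, in 32.01%. Both stood in the UHRF1 window, GGGCGG alone in the DNMT3A window and CCAAT alone in the DNMT3B window, while the TET1 window held neither. The libraries do not tell which start a transcript came from, and no deposited value measures methylation or binding at these windows.

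The depth of the 16 libraries, estimated from the step between the smallest values above 0, was 33.65 to 50.35 M counts each, and 1 count was worth 0.0199 to 0.0297 CPM. Libraries of a phase differed from each other by a median absolute log2 difference of 0.06 to 0.10. This was 0.18 to 0.26 between P0, P3 and P7, and 0.52 to 0.58 between P15 and any other phase. P15 also stood apart in genes that mark cell types. Of 14 epithelial and urothelial markers, 7 had a mean above 1 CPM over all libraries and their list summed to 2178 to 2251 CPM at P0 and 695 to 773 CPM at P15. KRT7 had a mean of 957 CPM at P0 and 11.5 CPM at P15, and GATA3 had 36.2 and 1.43 CPM. KRT18 moved the other way, with 471 CPM at P0 and 633 CPM at P15, where it made up most of the sum, and the uroplakin UPK1A had 0.075 and 1.98 CPM. The urothelial markers UPK1B and UPK3A, the basal markers KRT5 and TP63 and the adhesion gene CDH1 were at or near 0 in every phase, so the urothelial label rests on the keratins, GATA3 and PPARG. The 8 mesenchymal markers summed to 20654 to 24795 CPM at P0 and 1713 to 1849 CPM at P15, and within that list VIM had 45.1 and 1531 CPM while FN1 had 22391 and 119 CPM. Of the leukocyte markers PTPRC and CD3E were near 0 throughout, and LAPTM5 had 81.2 CPM at P0, 222 CPM at P7 and 0.571 CPM at P15. The part of these shifts in the results for the 8 genes was not tested. In bulk RNA, fewer cells that express a gene and less of its RNA per cell cannot be told apart.

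**Figure D1:**
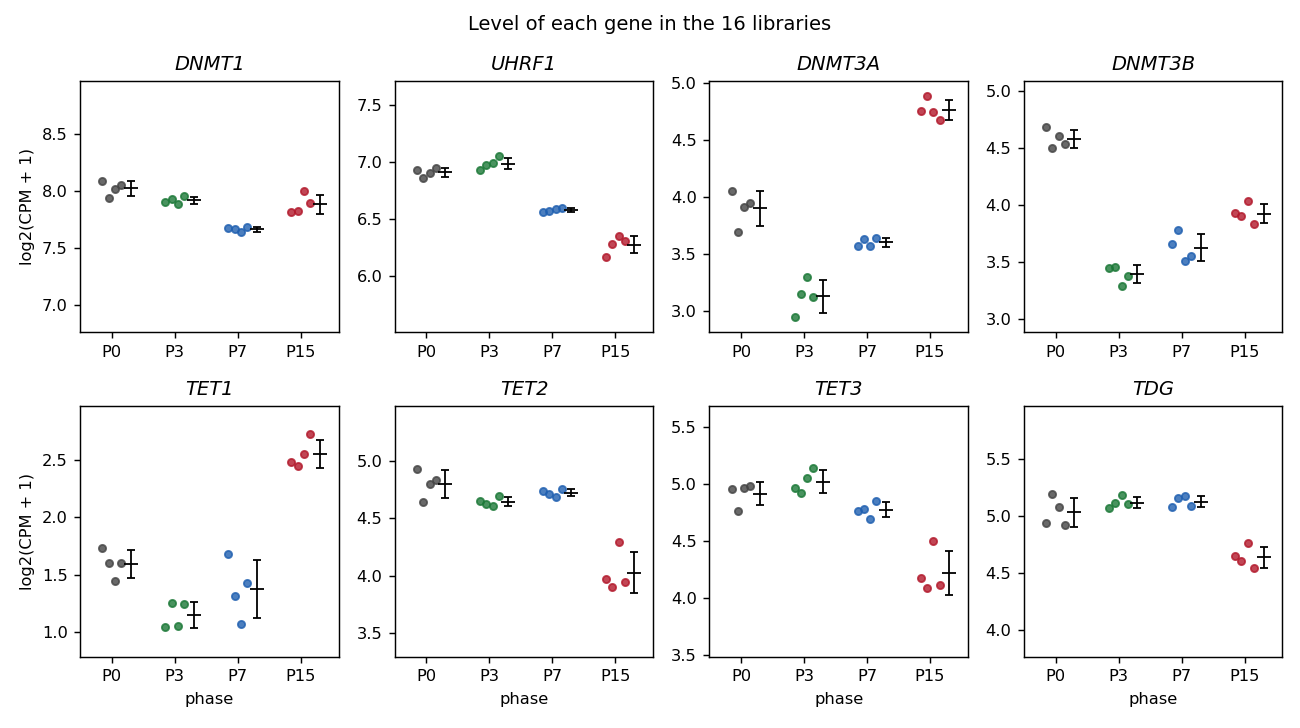
Each panel shows 1 gene, with log2(CPM + 1) on the vertical axis over a range of the same width in every panel and the 4 phases on the horizontal axis. Coloured points are the 4 libraries in order of replicate number, and the black bar is the mean ± SD (n = 4). DNMT3A and TET1 stand highest at P15, DNMT3B stands highest at P0, and TET2, TET3 and TDG stand lowest at P15.

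All values that follow are on the deposited scale, log2(CPM + 1), and are listed for replicates 1 to 4. Phases were compared with limma and Benjamini-Hochberg adjustment over the 13249 genes. A gene passed at an adjusted p below 0.05. Gene coordinates are those of the GENCODE annotation of GRCh38.

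DNMT1 encodes the maintenance methyltransferase. Its gene lies at chr19:10133342-10231286 on the minus strand. Its log2 values were 8.09, 7.94, 8.02 and 8.06 at P0 and 7.91, 7.93, 7.89 and 7.96 at P3. They were 7.68, 7.67, 7.64 and 7.69 at P7 and 7.82, 7.83, 8.0 and 7.90 at P15. The 4 libraries of P7 lay below all others, whereas the libraries of P0, P3 and P15 overlapped. DNMT1 moved less than any other of the 8 genes over the course, its phase means spanning 0.36. From P3 to P7 it fell by 0.25 (SE 0.04, adjusted p = 3.44e-06), and from P7 to P15 it rose by 0.22 (SE 0.04, adjusted p = 8.2e-06). At P3 it stood 0.11 below P0 (adjusted p = 0.0152), but without P0 replicate 1 the difference was -0.08 with an adjusted p of 0.0631. At P15 it stood 0.14 below P0 (adjusted p = 0.00127), and after quantile normalization this was -0.04 with an adjusted p of 0.375, so the small differences of DNMT1 from P0 depend on 1 library or on the scaling. P15 and P3 differed by -0.04 (SE 0.04, adjusted p = 0.376), or by -0.07 without P15 replicate 3 (adjusted p = 0.0489). The exons of DNMT1 share 83 bases with S1PR2 on the same strand, 0.54% of its exon length, and S1PR2 had a mean of 4.87 CPM against 260 CPM for DNMT1 at P0.

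UHRF1 encodes the partner that brings DNMT1 to newly copied DNA. The gene lies at chr19:4903080-4962154 on the plus strand. The 4 libraries of P0 had log2 values of 6.93, 6.86, 6.90 and 6.95 and those of P3 6.93, 6.97, 6.99 and 7.05. At P7 these were 6.56, 6.57, 6.59 and 6.60, and they were 6.17, 6.28, 6.35 and 6.31 at P15. P0 and P3 overlapped, every library of P7 lay below both, and every library of P15 lay below P7. UHRF1 thus fell in each of the later steps, by 0.41 from P3 to P7 (SE 0.04, adjusted p = 2.17e-09) and by 0.30 from P7 to P15 (SE 0.04, adjusted p = 5.12e-08). At P15 it was 0.63 below P0 (SE 0.04, adjusted p = 5.42e-14), and its mean CPM was 0.643 of that at P0. The difference of P3 from P0 was 0.08 (SE 0.04, adjusted p = 0.0756) and did not pass. It lay near the threshold, with adjusted p-values of 0.0319 after a shift of each library to a common median, 0.0447 without P3 replicate 1 and 0.0466 without P15 replicate 1. DNMT1 and UHRF1 therefore fell together from P3 to P7 and moved in opposite directions from P7 to P15, each past the test.

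DNMT3A encodes the de novo methyltransferase that is widely used in differentiated cells. It lies at chr2:25227855-25342590 on the minus strand. On the log2 scale it measured 4.05, 3.69, 3.91 and 3.95 at P0 and 2.95, 3.15, 3.30 and 3.12 at P3. The values were 3.57, 3.63, 3.57 and 3.64 at P7 and 4.75, 4.88, 4.74 and 4.67 at P15. No pair of phases overlapped, and the order of the phases was P3, P7, P0 and P15 from lowest to highest. DNMT3A first fell by 0.77 from P0 to P3 (SE 0.08, adjusted p = 4.01e-09), then rose by 0.47 to P7 (SE 0.08, adjusted p = 1.24e-05) and by 1.16 to P15 (SE 0.08, adjusted p = 5.22e-13). On the linear scale its mean was 13.99 ± 1.53 CPM at P0, 7.79 ± 0.869 CPM at P3, 11.2 ± 0.318 CPM at P7 and 26.1 ± 1.67 CPM at P15 (SD, n = 4). The rise from its lowest phase, P3, to P15 was 1.63 on the log2 scale (adjusted p = 5.11e-16), a ratio of 3.36 in CPM. P15 exceeded P0 by 0.86 (SE 0.08, adjusted p = 1.77e-10), and P7 was 0.30 below P0 (adjusted p = 0.00166).

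DNMT3B encodes the other de novo methyltransferase, which is most abundant in early embryos. It lies at chr20:32762385-32809359 on the plus strand. Its log2 values were 4.68, 4.50, 4.60 and 4.53 at P0 and 3.45, 3.46, 3.29 and 3.38 at P3. Subsequent log2 values were 3.66, 3.78, 3.51 and 3.55 at P7 and 3.93, 3.90, 4.03 and 3.83 at P15. Here too no pair of phases overlapped, and P0 was the highest phase. The fall from P0 to P3 was 1.18 (SE 0.07, adjusted p = 1.86e-13), the only difference of at least 2-fold among the 8 genes at that step, and 1.77% of the tested genes had a lower value of this difference. DNMT3B then rose by 0.23 to P7 (SE 0.07, adjusted p = 0.0055) and by 0.30 to P15 (SE 0.07, adjusted p = 0.000278). After quantile normalization the last of these rises was 0.17 and the difference of P15 from P3 was 0.34 in place of 0.53, both still past the test. P15 remained 0.66 below P0 (SE 0.07, adjusted p = 2.85e-09) and P7 0.95 below P0 (adjusted p = 1.42e-11). Mean levels were 22.9 ± 1.34 CPM at P0, 9.53 ± 0.565 CPM at P3, 11.4 ± 1.05 CPM at P7 and 14.2 ± 0.88 CPM at P15 (SD, n = 4). DNMT3L, the catalytically inactive partner of the de novo enzymes, was listed at 0 at P0, P3 and P7 and had a mean log2 value of 0.01 at P15.

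Both de novo genes were thus lowest at P3 and rose after it, but DNMT3A passed its parental level and DNMT3B did not reach it. Within each library the log2 value of DNMT3A minus that of DNMT3B lay between -0.81 and -0.58 at P0, between -0.50 and 0.01 at P3, between -0.15 and 0.09 at P7 and between 0.71 and 0.98 at P15. The 4 libraries of P15 were the only ones in which DNMT3A exceeded DNMT3B by more than 0.1. Per kilobase of the canonical transcript, the ratio of DNMT3A to DNMT3B in CPM was 0.253 to 0.301 at P0, 0.312 to 0.464 at P3, 0.411 to 0.493 at P7 and 0.772 to 0.940 at P15. With the length of all annotated exons the P15 ratio was 0.837 to 1.02, so per length the genes came near to each other at P15 and the order was not settled by the choice of length. For the maintenance genes, DNMT1 minus UHRF1 on the log2 scale was 1.08 to 1.16 at P0, 0.90 to 0.98 at P3, 1.05 to 1.12 at P7 and 1.55 to 1.65 at P15. P3 was lowest and P15 highest, with no overlap of either with the other phases. These ratios were chosen with the levels known and are given without a test.

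**Figure D2:**
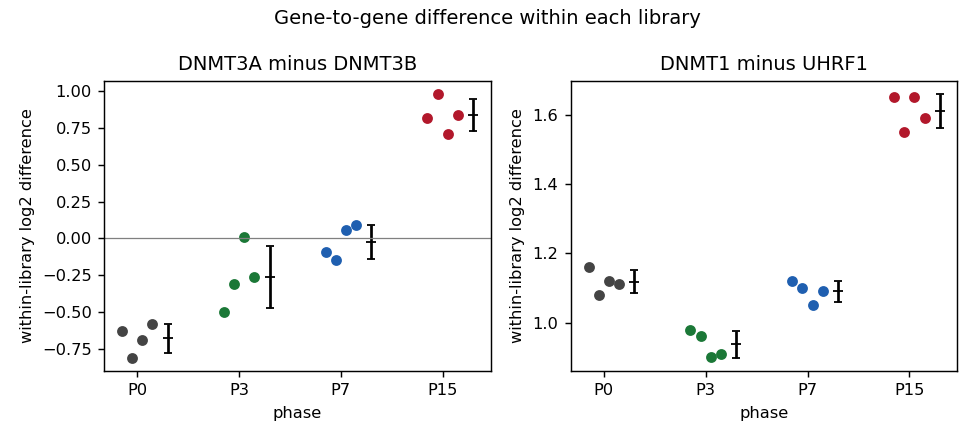
The vertical axes show the log2 value of 1 gene minus that of another within the same library, for DNMT3A minus DNMT3B on the left and DNMT1 minus UHRF1 on the right, by phase. Coloured points are libraries and black bars are the mean ± SD (n = 4). DNMT3A minus DNMT3B moves from between -0.81 and -0.58 at P0 to between 0.71 and 0.98 at P15, and DNMT1 minus UHRF1 is highest at P15.

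TET1 encodes an oxidase with a CG-binding CXXC domain and lies at chr10:68560337-68694487 on the plus strand. It was the least abundant of the 8 genes in every phase, with an estimated 38 to 88 counts per library from P0 to P7 and 176 to 251 at P15. Its log2 values were 1.73, 1.6, 1.44 and 1.6 at P0 and 1.04, 1.25, 1.05 and 1.24 at P3. The libraries of later phases had 1.68, 1.31, 1.07 and 1.43 at P7 and 2.49, 2.45, 2.56 and 2.73 at P15. P15 lay above every other library, P3 lay below P0 without overlap, and the libraries of P7 spread over both. TET1 fell by 0.45 from P0 to P3 (SE 0.11, adjusted p = 0.000985) and rose by 1.19 from P7 to P15 (SE 0.11, adjusted p = 3.95e-10). At P15 it exceeded P0 by 0.97 (SE 0.11, adjusted p = 1.65e-08), and its mean of 4.90 ± 0.519 CPM was 2.42 times the 2.02 ± 0.247 CPM of P0 (SD, n = 4). These log2 differences understate the change of a gene at this level. With pseudocounts of 0.1 and 5 in place of 1, the difference of P15 from P0 was 1.24 and 0.50, and that of P3 from P0 was -0.69 and -0.18, all past the test. The difference of P7 from P3 was 0.23 (SE 0.11, adjusted p = 0.0804) and that of P7 from P0 was -0.22 (SE 0.11, adjusted p = 0.0863), and neither passed. Both turned on single libraries of P7, since the first was 0.33 without P7 replicate 3 (adjusted p = 0.0118) and the second -0.32 without P7 replicate 1 (adjusted p = 0.013).

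TET2, at chr4:105145875-105279816 on the plus strand, encodes an oxidase that lacks its own CXXC domain. On the log2 scale TET2 measured 4.93, 4.64, 4.80 and 4.84 at P0 and 4.65, 4.63, 4.61 and 4.70 at P3. Later values were 4.74, 4.71, 4.69 and 4.76 at P7 and 3.97, 3.90, 4.29 and 3.94 at P15. P0, P3 and P7 overlapped with each other, and all 4 libraries of P15 lay below them, replicate 3 being the highest of P15. TET2 fell by 0.70 from P7 to P15 (SE 0.07, adjusted p = 1.48e-09) and by 0.78 from P0 to P15 (SE 0.07, adjusted p = 2.29e-10). The earlier differences were -0.16 for P3 against P0 (SE 0.07, adjusted p = 0.053), 0.08 for P7 against P3 (adjusted p = 0.355) and -0.08 for P7 against P0 (adjusted p = 0.345). The first of these lay at the threshold and passed under some alternatives, with an adjusted p of 0.0107 and a difference of -0.21 without P0 replicate 2, and adjusted p-values of 0.0479 and 0.0134 without P15 replicates 2 and 3.

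TET3, at chr2:73984910-74108176 on the plus strand, encodes the oxidase known from the zygote. Its log2 values were 4.95, 4.76, 4.96 and 4.98 at P0 and 4.96, 4.92, 5.05 and 5.14 at P3. They were 4.76, 4.78, 4.69 and 4.85 at P7 and 4.17, 4.09, 4.50 and 4.11 at P15. P15 again lay below all other phases with replicate 3 as its highest library, and P7 lay below P3 without overlap. TET3 fell by 0.25 from P3 to P7 (SE 0.07, adjusted p = 0.00637) and by 0.55 from P7 to P15 (SE 0.07, adjusted p = 2.38e-07). At P15 it was 0.70 below P0 (SE 0.07, adjusted p = 5.19e-09). P3 and P7 differed from P0 by 0.11 (adjusted p = 0.214) and -0.14 (adjusted p = 0.0992). The latter was -0.19 without P0 replicate 2 (adjusted p = 0.0286) and passed also without P15 replicate 3 (adjusted p = 0.0329). The exons of TET3 share 390 bases with a long noncoding RNA on the same strand, 3.01% of their length. TET1 therefore rose at the last step while TET2 and TET3 fell, each past the test.

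TDG, at chr12:103965822-103988874 on the plus strand, encodes the glycosylase that excises the oxidised bases. Libraries of P0 had log2 values of 4.94, 5.19, 5.08 and 4.92 and those of P3 5.07, 5.11, 5.18 and 5.10. The later log2 values were 5.08, 5.16, 5.17 and 5.09 at P7 and 4.65, 4.60, 4.76 and 4.54 at P15. The first 3 phases overlapped and P15 lay below all of them. From P7 to P15 TDG fell by 0.49 (SE 0.06, adjusted p = 2.42e-08), and at P15 it was 0.40 below P0 (SE 0.06, adjusted p = 7.62e-07). P3 and P7 differed from P0 by 0.08 (adjusted p = 0.204) and 0.09 (adjusted p = 0.164). Without P0 replicate 2, the highest P0 library for TDG, they were 0.14 (adjusted p = 0.0335) and 0.15 (adjusted p = 0.0253). TDG reads may be shared with a pseudogene copy, TDGP1, whose mean log2 value was 0.05 to 0.13 in the 4 phases. Its exons share 168 bases, 3.44% of their length, with a long noncoding RNA on the same strand.

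**Figure D3:**
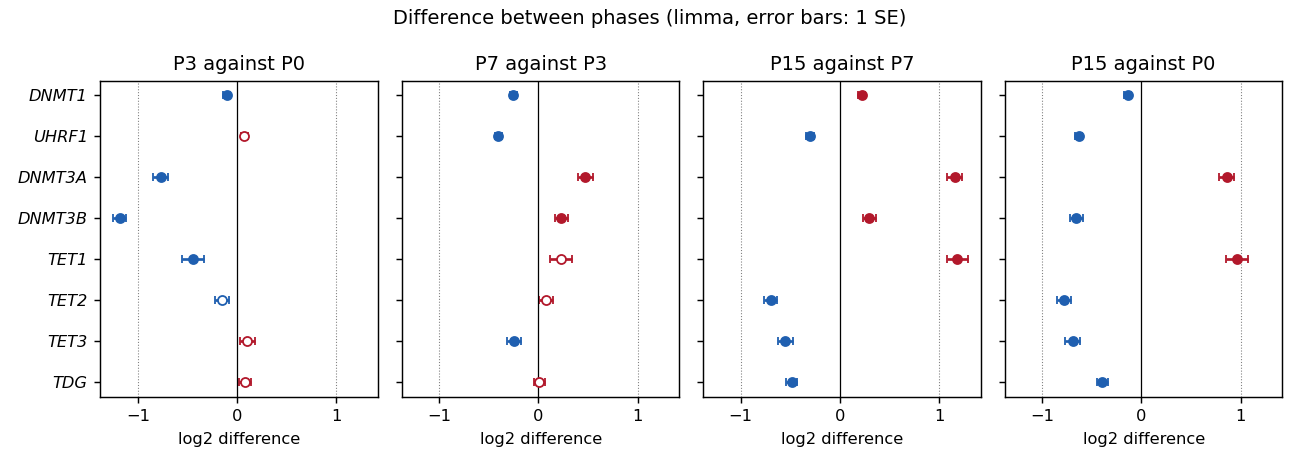
The horizontal axes show the log2 difference between phases for each gene, with bars of 1 SE from limma. Filled points passed the test and open points did not, red points are above 0 and blue points below 0, and dotted lines mark a 2-fold change. At P3 against P0 the filled points are DNMT1, DNMT3A, DNMT3B and TET1, all lower, and at P15 against P7 all 8 genes are filled, 4 higher and 4 lower.

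Counted over the 8 genes, 0 were higher and 4 lower at P3 than at P0 (DNMT1, DNMT3A, DNMT3B and TET1). Of all tested genes, 31.4% were called higher and 37.3% lower in that comparison, and 4.46% passed with at least a 2-fold difference, as DNMT3B did. The median log2 difference of the 8 genes was -0.13, against -0.03 for all tested genes. From P3 to P7, DNMT3A and DNMT3B were higher and DNMT1, UHRF1 and TET3 lower, on a background of 30.3% higher and 28.0% lower. No gene of the 8 differed by 2-fold at that step, where 1.83% of all genes did. At P7 against P0, 0 were higher and 4 were lower, now DNMT1, UHRF1, DNMT3A and DNMT3B, on a background of 27.9% higher and 34.2% lower. Again none of the 8 reached 2-fold, against 3.37% of all genes. TET1 passed at P3 and not at P7, where its difference from P0 was -0.22. TET2, TET3 and TDG passed against P0 at neither early phase in the limma fit used throughout. Each passed in at least 1 of these comparisons without P0 replicate 2. Other settings of limma also gave calls with no library of the compared phases left out. TET2 passed at P3 with a pseudocount of 5 (adjusted p = 0.0457), and TET3 at P7 with only the compared phases (adjusted p = 0.046). Whether the changes differ between the genes was not tested.

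The comparisons with P15 were of another size, for the 8 genes and for the table. From P7 to P15, 4 genes were higher (DNMT1, DNMT3A, DNMT3B and TET1) and 4 lower (UHRF1, TET2, TET3 and TDG). Of all tested genes 46.3% were higher and 40.1% lower, and 25.5% passed with at least 2-fold, as DNMT3A and TET1 did. Against P0, 2 genes were higher at P15 (DNMT3A and TET1) and 6 lower, on a background of 45.3% higher and 40.9% lower. On the log2(CPM + 1) scale none of the 8 reached 2-fold in that comparison, TET1 doing so with a pseudocount of 0.1 and without P0 replicate 1 or P15 replicate 2, against 23.6% of all tested genes, and their median was -0.51 against 0.04 for all tested genes. Against P3, 3 genes were higher at P15 (DNMT3A, DNMT3B and TET1) and 4 lower (UHRF1, TET2, TET3 and TDG), where 46.1% of the table was higher and 41.1% lower. DNMT3A and TET1 passed 2-fold there, as did 27.1% of all genes. Passing the test at P15 was therefore common in the table, and the size and direction of each gene's change carry more than the count. The comparisons share libraries, so their counts are not independent of each other.

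Compared per kilobase of the canonical transcript, mean levels at P0 ran from DNMT1 with 49.3 CPM per kilobase through UHRF1 with 30.6, TDG with 9.998, DNMT3B with 5.28, TET2 with 2.81, TET3 with 2.42 and DNMT3A with 1.49 to TET1 with 0.211. At P15 the order was DNMT1 with 44.8, UHRF1 with 19.7, TDG with 7.52, DNMT3B with 3.27, DNMT3A with 2.77, TET2 with 1.6, TET3 with 1.47 and TET1 with 0.51. The maintenance pair and TDG kept the first 3 places, and DNMT3A moved from place 7 to place 5, above TET2 and TET3. Neighbours whose libraries overlapped at P15 were TET2 and TET3, with 1.45 to 1.94 and 1.33 to 1.79 CPM per kilobase. With the length of all annotated exons in place of the canonical transcript, UHRF1 stood above DNMT1 at P0, P3 and P7, and TET3 above TET2 in every phase. TET1 was lowest with either length.

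UHRF1 and DNMT1 act at the replication fork, so 37 genes of DNA replication and S phase were set beside them. Their summed level was 5126 to 5763 CPM at P0, 5977 to 6220 CPM at P3, 4892 to 4965 CPM at P7 and 3172 to 3417 CPM at P15. At P3 against P0, 17 of the 37 were higher and 10 lower, where 31.4% of all tested genes were higher and 37.3% lower. The median was -0.01 against -0.03 for all tested genes. The higher sum at P3 therefore leans on abundant genes. RRM2 had means of 413 CPM at P0 and 779 CPM at P3, and MKI67 had 777 and 987 CPM. CCNE1, a cyclin that starts S phase, rose most (1.00, SE 0.06). PCNA, the sliding clamp of the fork, fell most (0.52, SE 0.03). From P3 to P7, the step at which both DNMT1 and UHRF1 fell, 0 were higher and 28 lower, on a background of 30.3% higher and 28.0% lower. The median was -0.21 against 0.01 for all tested genes. At P15 against P0, 8 were higher and 26 lower with a median of -0.68, on a background of 45.3% higher and 40.9% lower. The flap endonuclease FEN1 fell by 2.71 (SE 0.05) and the cyclin CCNE2 fell by 2.31 (SE 0.07), while the clamp loader subunit RFC2 rose by 0.77 (SE 0.04) and the polymerase subunit POLD1 by 0.70 (SE 0.04). From P7 to P15, 10 were higher and 26 lower, on a background of 46.3% higher and 40.1% lower. At that step UHRF1 moved in the direction of the larger number and DNMT1 in that of the smaller.

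The proliferation marker MKI67 had mean log2 values of 9.59 at P0, 9.95 at P3, 9.29 at P7 and 8.50 at P15. PCNA had 8.60, 8.08, 8.02 and 6.52, and HELLS, a chromatin remodeller needed for normal methylation levels, had 6.24, 6.13, 5.77 and 5.28. UHRF1, PCNA and HELLS were each lowest at P15, whereas DNMT1 was lowest at P7. Whether the change in these replication genes has a part in that of UHRF1 was not tested.

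**Figure D4:**
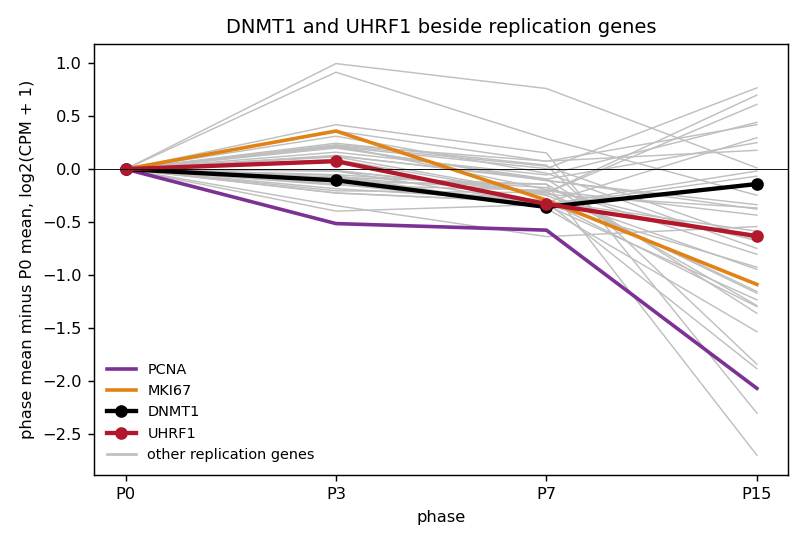
The vertical axis shows the mean log2(CPM + 1) of a phase minus that of P0, and the horizontal axis shows the phases. Thin grey lines are the replication and S phase genes, with PCNA and MKI67 coloured, and thick lines with points are DNMT1 in black and UHRF1 in red. UHRF1 ends 0.63 below P0, between DNMT1 at 0.14 below and MKI67, and PCNA ends 2.07 below.

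Of 33 readers and partners of the methylation machinery, 32 were in the table and 30 were tested. At P3 against P0, 7 were higher and 12 lower, where 31.4% of all tested genes were higher and 37.3% lower. CDCA7L rose by 0.91 (SE 0.04) and PCNA fell most. At P7 against P0, 6 were higher and 15 lower, on a background of 27.9% higher and 34.2% lower. At P15 against P0, 7 were higher and 19 lower, on a background of 45.3% higher and 40.9% lower. The median was -0.29 against 0.04 for all tested genes. The largest rises were those of CDCA7, which activates the remodeller HELLS, by 1.44 (SE 0.05) and of the histone demethylase KDM1B by 1.42 (SE 0.05). Apart from PCNA, CXXC5, a protein with a CG-binding domain, fell most, and it fell by 1.75 (SE 0.10). CDCA7 and HELLS, which work as a pair, thus moved in opposite directions at P15.

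Downstream of TET enzymes and TDG, 18 of the 19 listed base excision repair genes were tested. At P3 against P0, 5 were higher and 10 lower, where 31.4% of all tested genes were higher and 37.3% lower. GADD45A rose by 1.03 (SE 0.07) and the abasic-site endonuclease APEX1 fell by 0.68 (SE 0.03). At P15 against P0, 8 were higher and 9 lower, where 45.3% of all tested genes were higher and 40.9% lower. The median was 0.00. GADD45A and GADD45B, stress-induced genes that have been linked to active demethylation, rose by 3.00 (SE 0.07) and 2.14 (SE 0.08). GADD45A had mean log2 values of 5.74 at P0, 6.77 at P3, 6.14 at P7 and 8.74 at P15. The largest falls were those of the endonuclease APEX2 by 0.77 (SE 0.04) and of SUMO3, a modifier of the kind attached to TDG, by 0.55 (SE 0.03).

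The methyl groups come from S-adenosylmethionine, and 20 of 24 listed genes of the methyl donor cycle were tested. At P3 against P0, 4 were higher and 12 lower, on a background of 31.4% higher and 37.3% lower. The transsulfuration gene CBS fell by 1.46 (SE 0.09). CBS has a near-identical copy in the reference genome, so its value depends on how shared reads were counted. At P15 against P0, 9 were higher and 10 lower with a median of -0.10, on a background of 45.3% higher and 40.9% lower. CTH, which follows CBS in transsulfuration, and MTHFD2 of mitochondrial folate metabolism rose by 1.31 (SE 0.07) and 1.28 (SE 0.04). NNMT, which spends methyl groups on nicotinamide, fell by 2.02 (SE 0.07).

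TET enzymes need 2-oxoglutarate, iron and ascorbate, and 17 of 18 listed genes of cofactor supply were tested. At P3 against P0, 5 were higher and 9 lower, on a background of 31.4% higher and 37.3% lower. The glucose and dehydroascorbate transporter SLC2A1 rose by 0.77 (SE 0.04), and IDH2, which makes 2-oxoglutarate in mitochondria, fell by 0.88 (SE 0.04). At P15 against P0, 6 were higher and 7 lower with a median of 0.01, on a background of 45.3% higher and 40.9% lower. IDH3A, a subunit of the mitochondrial isocitrate dehydrogenase, fell by 0.68 (SE 0.05), and the succinate dehydrogenase subunit SDHB rose by 0.81 (SE 0.04).

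**Figure D5:**
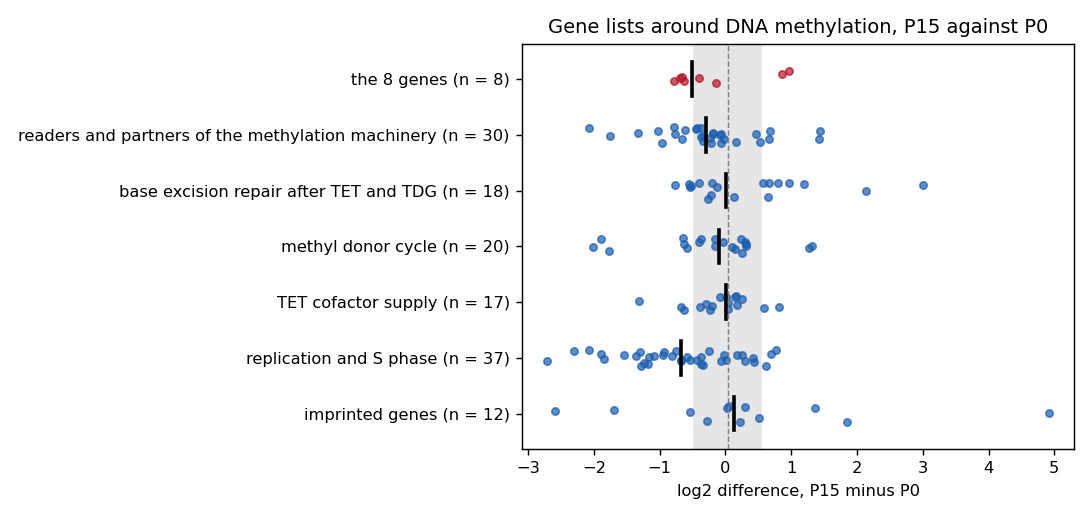
The horizontal axis shows the log2 difference of P15 minus P0 for each tested gene of a list, with lists on the vertical axis. Each point is a gene, black bars are list medians, the grey band spans the quartiles of all tested genes (-0.48 to 0.54) and the dashed line their median of 0.04. The medians of the 8 genes (-0.51), of the replication list (-0.68) and of the readers and partners (-0.29) lie below the dashed line. Those of the methyl donor cycle (-0.10), base excision repair (0.00) and TET cofactor supply (0.01) also lie below it. That of the imprinted genes (0.135) lies above it.

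Across the 16 libraries, the tested genes whose centred profile lay closest to each of the 8 were sought for those with phase means spanning at least 0.5, which leaves out DNMT1 and TDG. For UHRF1 they were CYB5B, BAZ1A and IQGAP1, the nearest with a root mean square difference of 0.054 on the log2 scale. For DNMT3A they were ZMYM2, MARS and LTA4H, from 0.110. For DNMT3B they were TNFAIP2, FADS1 and RPP25L, from 0.142, a larger distance than for any other of the 6 genes. For TET1 they were TRIM59, ZFP69B and C16orf58, for TET2 GCC2, DNAJC13 and ACLY, and for TET3 ZFYVE26, RBBP6 and BCLAF1. No other member of the 8 was among the nearest 3 of any. The 16 points of each profile fall into 4 phases and share their libraries, so likeness here is mostly likeness of 4 phase means.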

How the data were processed

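RNA of 16 libraries of T24 and GRC1 cells, 4 each at P0, P3, P7 and P15, was sequenced as paired-end reads. Per the submitters' processing notes and the study's methods, reads were aligned to GRCh38 with STAR 2.6.1a and counted on genes with featureCounts. The annotation release, the strand setting and the handling of shared reads are not given in the sources used here. The table the authors deposited holds log2(CPM + 1) for 39007 symbols, with 2 decimals. Between 71.4 and 73.5% of genes with 1 to 8 estimated counts had an even count, so estimated counts can overstate the number of independent fragments, those of TET1 included. Depth was estimated at 33.65 to 50.35 M counts per library, which leaves TET1 as the least precise of the 8 genes.

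The comparisons of phases used limma 3.58.1 (R 4.3.3) on the deposited log2 values, with 1 coefficient per phase over all 16 libraries and empirical Bayes moderation with a variance trend. P-values were adjusted by Benjamini-Hochberg over 13249 genes whose mean exceeded 1 CPM. No count model was used, since the values are not counts. The procedure was also run on simulated data, with results not reported here. Tables were made in Python 3.11.15 with pandas 2.3.3 and numpy 2.4.6, and figures with matplotlib 3.10.9. Gene coordinates and lengths are from GENCODE on GRCh38 and promoter windows from RefSeq. The alternatives were no filter, a filter in every library, pseudocounts of 0.1 and 5, quantile normalization, a common median, a replicate block, no variance trend, only the compared phases, and each library left out in turn.

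The 8 genes, the lists and the tests were chosen with earlier results of these data known. From each list the text names the 2 genes with the largest rise and fall at P15 against P0 among those that passed (1 each at P3), together with MKI67, PCNA and HELLS, listed markers, and for each of the 8 genes with phase means spanning at least 0.5 the 3 genes nearest to it. Some genes that this rule names are not reported here. DNMT3L, TDGP1 and S1PR2 were named after their values were seen. Replicate numbers are those of the sample descriptions and differ from the numbers in the titles for 14 of the 16 libraries. The titles also carry a number after the letter S, whose meaning is not given, and 5 of these numbers are used by 2 libraries each. The sequencing run of a library is not given in the sources used here, so run and phase cannot be told apart.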

Additional observations from a re-analysis of the deposited data

Results flagged for a closer look

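In a group of 4 libraries, a library was singled out where its gap to the nearest other exceeded the 95% critical value of Dixon's ratio of gap to range. Of 68 groups examined, 3 were singled out, where chance gives about 1 in 20. TET3 was lower in P0 replicate 2 than in the other 3 libraries of P0, with a ratio of 0.864, and HELLS was lower in the same library, with a ratio of 0.875. MKI67 was higher in P15 replicate 3 than in the other libraries of P15, with a ratio of 0.875. P0 replicate 2 held the lowest P0 value for 6 of the 8 genes of methylation writing and removal, and P15 replicate 3 held the highest P15 value for 6 of them. Without P0 replicate 2 the difference of TET3 between P7 and P0 was -0.19 with an adjusted p of 0.0286 (limma), in place of -0.14 and 0.0992.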

How the results depend on the processing

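Over 10 other settings, 474 of 480 differences of the 8 genes kept their side of the threshold, 1 lost the call and 5 gained it. Of 768 differences with 1 library left out, 755 kept their side, 1 lost the call and 12 gained it. No difference on which a call rests changed sign. Differences without a call could do so, as that of DNMT1 between P15 and P3, which was -0.04 and reached 0.05 under an alternative. The number of the 8 genes with at least a 2-fold change depended on the pseudocount, as its construction makes values nearer to 0 differ more or less. With a pseudocount of 5 it was 0 in place of 1 at P3 against P0, 0 in place of 2 at P15 against P7 and 1 in place of 2 at P15 against P3. With a pseudocount of 0.1 it was 1 in place of 0 at P7 against P0 and at P15 against P0. With 1 library left out it ranged from 0 to 1 at P7 against P0 (1 without P7 replicate 2) and from 0 to 1 at P15 against P0 (1 without P0 replicate 1 and without P15 replicate 2), since DNMT3B and TET1 lie close to 2-fold there.

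Over all tested genes, 2-fold counts moved from 591 to 380 with the filter in every library, 939 with a pseudocount of 0.1 and 290 with 5 at P3 against P0, from 243 to 138, 445 and 106 at P7 against P3, and from 447 to 261, 711 and 203 at P7 against P0. With a pseudocount of 5 they moved from 3376 to 2166 at P15 against P7, from 3126 to 1976 at P15 against P0 and from 3588 to 2321 at P15 against P3. Libraries with the same replicate number did not deviate together (correlations of -0.15 to 0.22 over 24 pairs), so the number was not used as a pairing. With the replicate block by the numbers of the descriptions, TET2 at P3 against P0 had a difference of -0.16 and an adjusted p of 0.0494, and no other call of the 8 genes changed. The block by the numbers of the titles changed none. Depth limits TET1 most, whose P3 and P7 values rest on 38 to 84 counts per library.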

Other observations

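Imprinted genes and germline genes, classes whose silencing is known to involve DNA methylation, were read from the same table. Of 25 listed imprinted genes 24 were in the table and 12 were tested. At P15 against P0, 5 were higher and 4 lower by limma with Benjamini-Hochberg adjustment, and 5 changed by at least 2-fold, against 45.3% higher, 40.9% lower and 23.6% with at least 2-fold among all tested genes. DIRAS3, a maternally imprinted RAS-family gene, had mean log2 values of 0.45 at P0, 0.33 at P3, 0.41 at P7 and 5.37 at P15. It passed the filter on low values only through P15, so no test of it is given. DIRAS3 is among the 12 tested, the 5 higher and the 5 with at least 2-fold. Its place there was set by the filter, so nothing is concluded from those counts. PEG10, a retrotransposon-derived gene, rose by 1.85 (SE 0.03). The growth factor gene IGF2 fell by 2.6 (SE 0.05), with mean log2 values of 8.36, 7.25, 7.44 and 5.76 in the 4 phases, and L3MBTL1 fell by 1.69 (SE 0.14).

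Of 16 listed germline genes known to be silenced by promoter methylation in other cells, 15 were in the table. Of these, 14 never exceeded 1 CPM in a library and 5 of them were at 0 in all libraries. Among the 14, SOHLH2 had mean log2 values of 0.08 at P0 and 0.84 at P15, and MOV10L1 had 0.965 and 0.0. The remaining gene, HORMAD1, which acts on meiotic chromosome axes, had 0.14 to 0.35 on the log2 scale at P0, 0.00 to 0.20 at P3, 0.00 to 0.08 at P7 and 4.74 to 4.99 at P15. It too passed the filter only through P15, so no test of it is given. DIRAS3 and HORMAD1 were therefore each low in all 12 libraries before P15 and high in all 4 libraries of P15, while most germline genes of the list stayed near 0. Methylation at these genes was not measured, and these genes were picked by the size of their change.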
